A study of Mus musculus with 2 samples.

Results

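The hair shaft keratins are the cysteine-rich keratins that fill the cells of the hair shaft, and 10 of them were followed here in 2 sorted cell populations of mouse hair follicles: Krt31, Krt32, Krt33a, Krt33b, Krt34, Krt35, Krt81, Krt83, Krt84 and Krt86. They were found by their gene symbols in the annotation of the array, where 10 of 18193 genes, and 10 of 34945 probe sets that name a single gene, carried one of these symbols. Each had 1 probe set. None of the 10 probe sets had an s, x or a suffix, the marks by which the array's maker flags probes shared between transcripts or genes, and no probe set that names several genes included one of them. Probe sequences were not used here, so sharing of probes among near-identical keratins was not tested.

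Both populations came from back skin of CD-1 pups at postnatal day 4 that carried the K14-RFP and Sox9-EGFP transgenes. The early bulge population was bright for both reporters, and the non-bulge outer root sheath (ORS) population was bright for RFP and negative for GFP. RFP was driven by the keratin 14 promoter, active in basal keratinocytes, and GFP reported Sox9, a transcription factor of follicle stem cells. Cells that were dead, or large and differentiated, had been removed by DAPI staining and side scatter, per the labels' protocols. How many pups each sample came from is not given in the labels. Each population was measured on 1 Affymetrix array, so there is no replicate spread, and no test between the populations was possible. Values are MAS5 signals, a linear brightness in arbitrary units after the arrays had been scaled to one common mean.

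Keratins are filament proteins that assemble only as pairs of an acidic type I and a basic type II chain. Hair keratins are made one after another as matrix cells of the hair bulb move up and become cuticle, cortex and medulla of the shaft, and the surrounding inner root sheath uses a separate set. Outer root sheath and bulge cells are known instead for keratins 5, 14, 15 and 17. Krt31 to Krt35 are type I genes and Krt81 to Krt86 type II genes. In human follicles KRT35 is among the earliest hair keratins and KRT32 is a cuticle keratin. The proteins of KRT31, KRT33A, KRT33B, KRT34, KRT81, KRT83 and KRT86 are cortex keratins there, and KRT84 is known from the tongue.

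All 10 hair shaft keratins were brighter in early bulge in the values as deposited, and 9 of 10 after median centring, quantile normalization or loess scaling, under each of which Krt34 turned to a log2 ratio between -0.08 and -0.02. Of the 10, 4 were at least 2-fold higher in early bulge and none was so in non-bulge ORS. For every gene, signals below 57.8, the 40th percentile of all signals, were set to that floor, and a ratio with 1 array at the floor is a bound. Among 13252 measured genes, those with at least 1 array at the floor or above it, 7.3% were at least 2-fold higher in early bulge and 4.78% in non-bulge ORS, against 4 of 10 and 0 of 10 hair shaft keratins. At any size, 53% of measured genes were higher in early bulge. The median log2 ratio of the 10 genes was 0.66, beside 0.04 for all measured genes. Only 7 of the 10 reached the floor on both arrays. Krt33b, Krt34 and Krt84 reached it in early bulge alone, which fixes the direction of their bounds. They could count only towards early bulge, and Krt33b is 1 of the 4 past 2-fold. The 7 genes had a median log2 ratio of 0.77 (range 0.35 to 1.53), beside 0.01 for 11534 genes at or above the floor on both arrays. Of the 7, 4 were less than 2-fold apart, as were 10267 of the 11534. In bulk RNA of a sorted population, more cells that express a gene and more RNA per cell cannot be told apart.

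**Figure D1:**
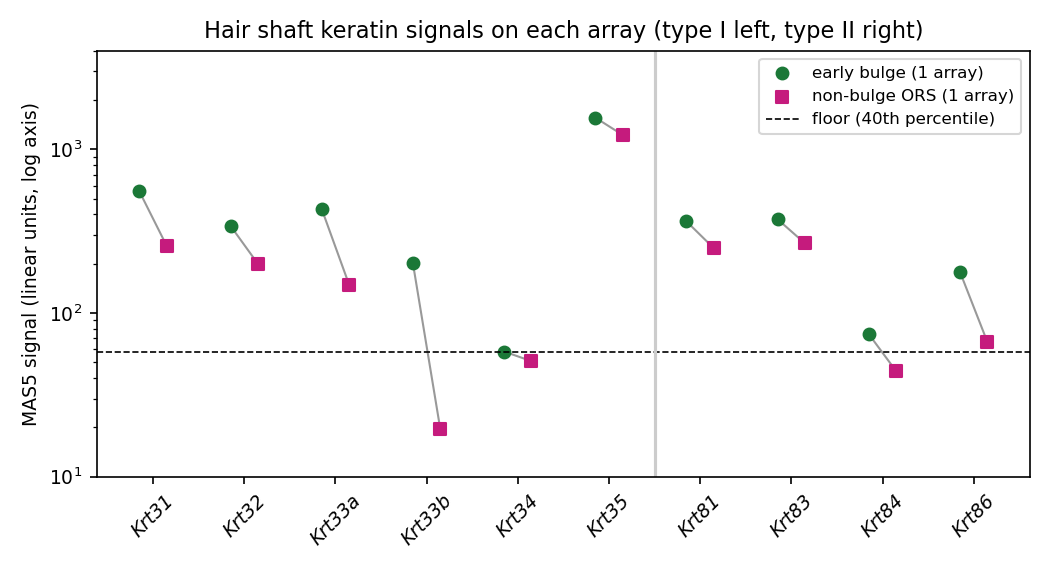
MAS5 signal (linear units on a log axis) of the 10 hair shaft keratins, with early bulge as circles on the left of each pair and non-bulge ORS as squares on the right, 1 array each; the dashed line is the floor of 57.8. As deposited, every circle lies above its square, and Krt33b, Krt34 and Krt84 have the ORS array below the floor.

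Among the type I genes, the neighbouring pair Krt33a and Krt33b and the cortex keratin gene Krt31 were at least 2-fold higher in early bulge. Krt33a had a signal of 431 in early bulge and 149 in non-bulge ORS, a 2.89-fold difference. Krt33b had 201 in early bulge and 19.5 in non-bulge ORS, the ORS value lying below the floor, which gives at least 3.47-fold. Krt31 had 553 in early bulge and 257 in non-bulge ORS, a 2.15-fold difference. With a pseudocount of 50 in place of the floor the log2 ratio of Krt31 was 0.97, under 2-fold, and with the floor at the 60th percentile the bound for Krt33b was 0.22. The ratio of Krt33a stood at percentile 96.7 of all measured genes and that of Krt31 at percentile 93.8.

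The other 3 type I genes were less than 2-fold apart. Krt32, the cuticle keratin gene, had 340.2 in early bulge and 199.6 in non-bulge ORS, or 1.70-fold. Krt35, the early keratin of matrix and precortex, had 1562 in early bulge and 1224 in non-bulge ORS, or 1.28-fold, and both values were far above the floor. Krt34, a keratin of the upper cortex in human hair, had 58.2 in early bulge and 50.8 in non-bulge ORS. It sat at the floor on one array and under it on the other, so no ratio can be read for it.

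Of the type II genes only Krt86 passed 2-fold. Its signals were 178 in early bulge and 66.6 in non-bulge ORS, or 2.67-fold, at percentile 96.2 of measured genes, with the ORS value just above the floor. Its log2 ratio of 1.42 depended on the treatment of dim signals: it was 0.97 with a pseudocount of 50 in place of the floor and at least 0.05 with the floor at the 60th percentile, both under 2-fold. Krt81, which neighbours Krt86, had 363 in early bulge and 249 in non-bulge ORS, or 1.46-fold. Krt83, the neighbour on the other side, had 374 in early bulge and 266 in non-bulge ORS, or 1.40-fold. In humans, mutations of KRT81, KRT83 and KRT86 cause the fragile-hair disorder monilethrix. Krt84 was dim, with 74.2 in early bulge and 44.1 in non-bulge ORS, which gives at least 1.28-fold. Over genes at or above the floor on both arrays, the median log2 ratio was 0.94 for 4 type I genes (range 0.35 to 1.53) and 0.55 for 3 type II genes (range 0.49 to 1.42), so these ranges overlapped. Krt33b, Krt34 and Krt84, which have bounds only, stand outside this comparison.

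The only measure of error in these arrays is how far probe sets of one gene disagree. Over 10058 pairs of probe sets with mean signals in the range of the hair shaft keratins, the log2 ratios of a pair differed by 0.62 (root mean square), or an SD of 0.44 per probe set. Any log2 ratio past 2-fold is also above 2 times this SD (0.88). That Krt31, Krt33a and Krt86 lay above it, as did the bound of Krt33b, therefore adds nothing to the 2-fold count. The log2 ratio of Krt35 was within 1 SD of 0, and the bounds of Krt34 and Krt84 were not placed on this scale. This spread comes from probe sets of the same arrays, so it is technical and says nothing of the variation between arrays or animals.

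Dim genes leaned towards early bulge as a whole, so the ratios were also set beside those of genes in the same signal range. That range is wide, with mean log2 signals from 5.76 (Krt34) to 10.43 (Krt35). It does not match each hair shaft keratin on signal. Of 8956 measured genes with a mean signal within the range of the 10 hair shaft keratins, 55.3% were higher in early bulge. At least 2-fold higher there were 8.94%. The loess curve of ratio against signal lay at 0.06 for Krt31 and 0.10 for Krt33a, and at 0.21 and 0.27 for the dimmer Krt86 and Krt33b (log2). After loess scaling the log2 ratios were 1.05 for Krt31, 1.43 for Krt33a, 1.67 for Krt33b and 1.21 for Krt86.

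**Figure D2:**
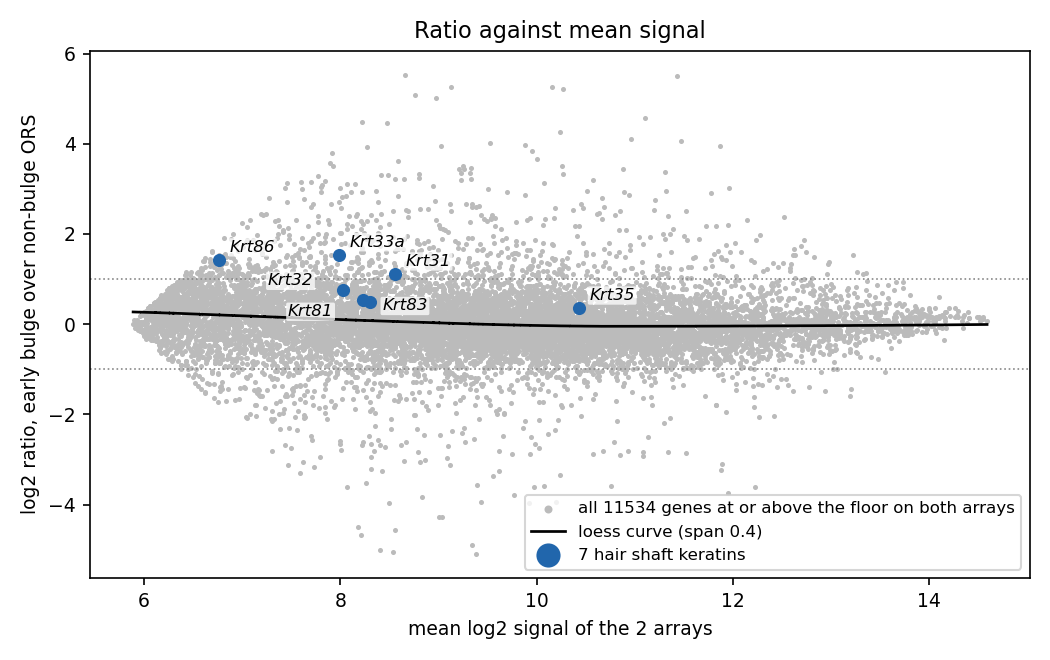
Log2 ratio of early bulge over non-bulge ORS (vertical) against the mean log2 signal of the 2 arrays (horizontal) for 11534 genes at or above the floor on both arrays; blue points are the 7 hair shaft keratins among them, the black line is the loess curve and dotted lines mark 2-fold. All 7 lie above the curve, and Krt31, Krt33a and Krt86 lie above the 2-fold line.

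Median centring moved the median of all genes by -0.21 on the log2 scale, more than the -0.06 of quantile normalization and the -0.05 of loess scaling. Under it Krt31 had a log2 ratio of 0.89 and was no longer 2-fold apart. Its distance from the median of all genes was 1.06, beside 1.07 in the values as deposited. Centring shifts all unfloored ratios alike, so that distance could hardly change and is no support. Krt33a, Krt33b and Krt86 were at least 2-fold higher in early bulge under all 3 scalings with the floor at the 40th percentile, against 5.34%, 6.45% and 6.43% of measured genes after median, quantile and loess scaling.

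**Figure D3:**
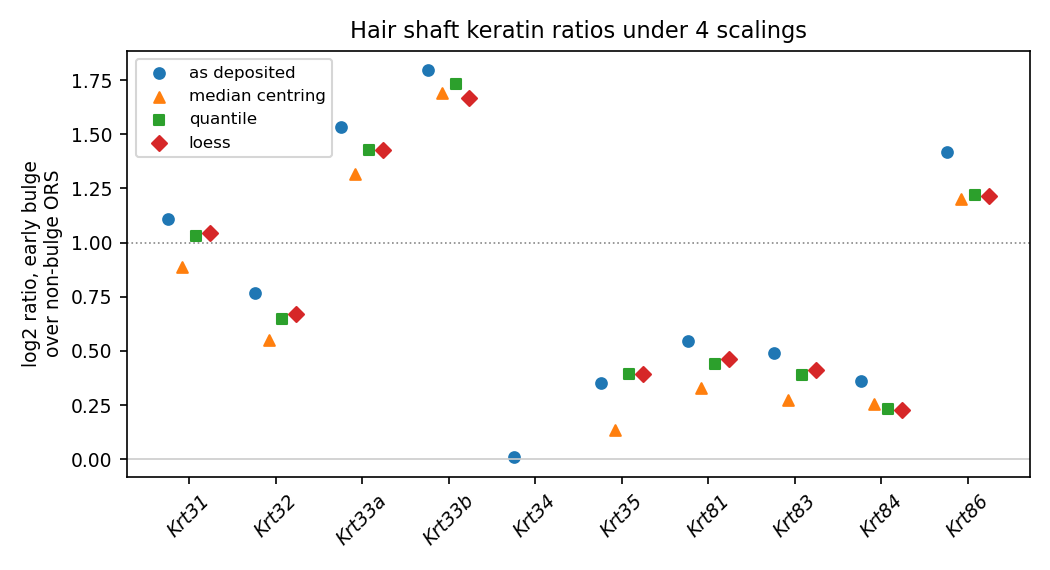
Log2 ratio of early bulge over non-bulge ORS for each hair shaft keratin (horizontal axis) under 4 scalings of the arrays, with the floor applied; the dotted line marks 2-fold. Krt33a, Krt33b and Krt86 stay above the line under each scaling, Krt31 falls to 0.89 with median centring, and Krt34 has a value only as deposited.

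The hair shaft keratins lie in the type I and type II keratin clusters, on chromosomes 11 and 15 in the mouse gene table of RefSeq. Krt33a, Krt33b, Krt34, Krt31, Krt32 and Krt35 follow each other on chromosome 11 with no other protein-coding gene between them. Their log2 ratios in that order were 1.53 for Krt33a, at least 1.80 for Krt33b, none readable for Krt34, 1.11 for Krt31, 0.77 for Krt32 and 0.35 for Krt35. Krtap17-1, a keratin-associated protein gene next to Krt33a, had 3771 in early bulge and 679 in non-bulge ORS, a 5.56-fold difference. Krt36 on the far side of Krt35 had 125 in early bulge and 74.2 in non-bulge ORS, a log2 ratio of 0.75, from a probe set with an a suffix. On chromosome 15, Krt86 stood above both of its neighbours Krt81 and Krt83.

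**Figure D4:**
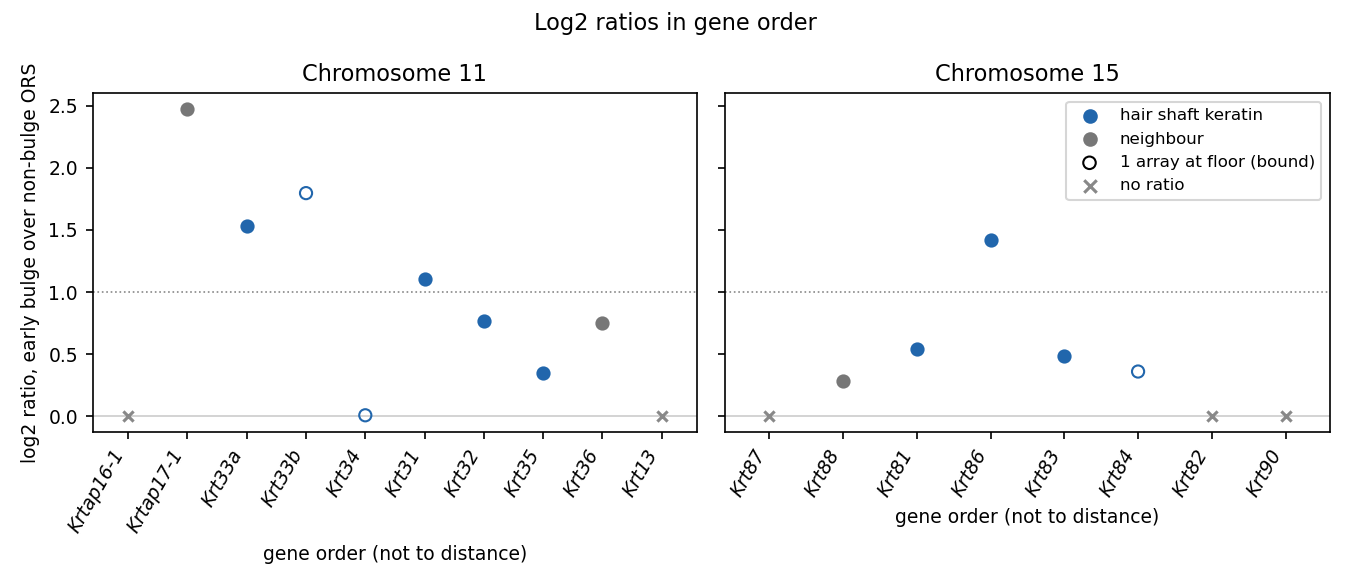
Log2 ratio of early bulge over non-bulge ORS (vertical) for the hair shaft keratins and the nearest protein-coding genes on each side, in gene order on chromosome 11 (left panel) and chromosome 15 (right panel), not to distance; open circles have 1 array at the floor and crosses are genes with no ratio. Krtap17-1 is the highest point at 2.47, beside Krt33a and Krt33b, and Krt86 is the highest on chromosome 15.

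Promoter sequences were at hand for 5 of the 10 genes: Krt31, Krt32, Krt33b, Krt34 and Krt84. They are shown for members that were at least 2-fold higher in early bulge (Krt33b and Krt31) and for members that were dim or at the floor (Krt34 and Krt84). This is not a contrast of high with low ratios, because Krt34 has no readable ratio and Krt84 only a bound. The sequences are the 250 bases before the annotated start in RefSeq (GRCm38.p6), all on the minus strand, written 5′ to 3′. Capitals mark CTTTGAA, the core of sites bound by LEF1, which regulates hair keratin genes, TATAAA, the TATA box, and TTTTATG, a string chosen after the promoters were read, each on either strand. The positions are chr11:100029869-100030118 for Krt33b, chr11:100050552-100050801 for Krt31, chr11:100041555-100041804 for Krt34 and chr15:101532821-101533070 for Krt84.
Krt33b: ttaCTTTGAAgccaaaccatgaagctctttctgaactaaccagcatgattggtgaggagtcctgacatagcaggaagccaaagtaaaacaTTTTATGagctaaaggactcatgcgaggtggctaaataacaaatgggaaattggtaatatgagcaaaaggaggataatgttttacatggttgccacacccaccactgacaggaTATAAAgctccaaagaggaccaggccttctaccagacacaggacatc
Krt31: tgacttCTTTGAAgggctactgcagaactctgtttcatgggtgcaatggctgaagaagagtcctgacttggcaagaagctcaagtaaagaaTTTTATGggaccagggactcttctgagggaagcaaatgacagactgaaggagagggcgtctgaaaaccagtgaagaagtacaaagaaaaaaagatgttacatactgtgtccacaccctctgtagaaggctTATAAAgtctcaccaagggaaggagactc
Krt34: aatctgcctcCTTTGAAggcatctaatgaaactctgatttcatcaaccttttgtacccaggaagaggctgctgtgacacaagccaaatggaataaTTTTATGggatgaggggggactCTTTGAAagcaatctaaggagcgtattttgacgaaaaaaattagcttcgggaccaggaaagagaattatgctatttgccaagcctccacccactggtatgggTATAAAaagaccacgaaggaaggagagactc
Krt84: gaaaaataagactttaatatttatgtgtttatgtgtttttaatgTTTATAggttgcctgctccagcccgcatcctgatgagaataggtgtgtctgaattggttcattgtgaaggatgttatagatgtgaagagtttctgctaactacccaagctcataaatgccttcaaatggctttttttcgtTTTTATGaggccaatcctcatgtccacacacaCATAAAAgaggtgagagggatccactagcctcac

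CTTTGAA was found in 4 of the 5 promoters, all of type I genes, and in 4.46% of 32851 promoters of the same length. It began 247 bases before the start in Krt33b and Krt32, 244 in Krt31, and 240 and 133 in Krt34. TTTTATG was in all 5 and in 3.77% of all promoters, but it was chosen after these 5 were read, so the shares are no fair comparison. It began between 155 and 160 bases before the start in the 4 type I genes. Those 4 genes lie in one cluster, so their shared strings may not be independent. TATAAA was in all 5 and in 12.4% of all promoters. In Krt33b, Krt34, Krt31 and Krt32 a copy lay 29 to 47 bases before the start, whereas in Krt84 the match was on the opposite strand, 206 bases before it. TAATTG, the core bound by Dlx and Msx homeobox proteins, was in none of the 5 and in 7.17% of all promoters. No 2 matches overlapped. Krt34, which was at or under the floor, held the same strings as Krt31 and Krt33b.

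Other genes of the hair shaft included members that were higher in early bulge. Keratin-associated proteins, the matrix that embeds hair keratin filaments, had 26 measured of 38 genes with a probe set. Of these, 7 (26.9%) were at least 2-fold higher in early bulge and 0 in non-bulge ORS, beside 7.3% and 4.78% of all measured genes. The median log2 ratio of the 26 was 0.59, and 8 of the 26 were bounds, some of them among the 7. After median centring 2 of 24 passed 2-fold, after quantile normalization 3 of 24 and after loess scaling 2 of 25, with medians of 0.41, 0.49 and 0.43. The shares over all measured genes were then 5.34%, 6.45% and 6.43%, so little of the excess was left. After Krtap17-1 the highest ratio was that of Krtap12-1, with 393 in early bulge and 109 in non-bulge ORS (3.59-fold).

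Of 9 other measured hair shaft proteins, 2 were at least 2-fold higher in early bulge and 1 in non-bulge ORS. The shares over all measured genes were 7.3% and 4.78%. The calcium-binding protein gene S100a3, known from the hair cuticle, had 457 in early bulge and 212 in non-bulge ORS, or 2.15-fold. Vsig8 had 211 in early bulge and 88.9 in non-bulge ORS, or 2.38-fold. Padi3, an enzyme that modifies arginines of structural hair proteins, had 173 in early bulge and 479 in non-bulge ORS, 2.78-fold higher in non-bulge ORS. Of the further hair keratins, Krt36 is given above, Krt82 lay under the floor on both arrays, and Krt39, Krt40, Krt85 and Krt87 were not analysed here.

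The keratins of the inner root sheath, the layer next to the shaft, differed in direction from the hair shaft keratins. Of 8 measured genes of that layer, 0 were at least 2-fold higher in early bulge and 3 were so in non-bulge ORS, with a median log2 ratio of -0.58 (range -3.58 to 0.58). Over all measured genes, 7.3% were at least 2-fold higher in early bulge and 4.78% in non-bulge ORS. Krt28, Krt71 and Krt25 had log2 ratios of -3.58, -1.64 and -1.33, while Krt72 and Krt73 had 0.58 and 0.44. Krt27 and Tchh, the trichohyalin gene, had -0.85 and -0.05, and Krt26 was dim, with 56.1 in early bulge and 71.2 in non-bulge ORS. With 1 array a group, the difference between the lists was not tested. Keratins listed here under outer root sheath and companion layer, among them the gate gene Krt14, were mostly higher in early bulge. Of 8 measured, 4 were at least 2-fold higher there and 1 in non-bulge ORS, with a median of 0.98. The 4 were Krt79, Krt6a, Krt17 and Krt14, and the 1 was the companion layer keratin Krt75, with 412 in early bulge and 2348 in non-bulge ORS. Krt79 was placed in this list by choice, and the layer its signal came from was not tested.

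Regulators of hair shaft and inner root sheath differentiation were mostly higher in non-bulge ORS. Of 18 measured, 7 were at least 2-fold higher in non-bulge ORS and 1 in early bulge, beside 4.78% and 7.3% of all measured genes. The median log2 ratio of the 18 was -0.71. The gene higher in early bulge was Prdm1 (2.52), a transcription repressor, named after its value was seen. The largest were Dlx3, Msx2, Dlx2 and Cux1, with log2 ratios of -3.53, -3.36, -3.25 and -2.81. Their weakest other probe sets gave -0.80 for Dlx3, -1.12 for Msx2 and -0.23 for Cux1, and Dlx2 had no other measured probe set. Foxn1, a transcription factor that controls hair keratin genes, had 109 in early bulge and 362 in non-bulge ORS, and Lef1 had 250 in early bulge and 1525 in non-bulge ORS. Both were chosen after their values were seen. The other probe set of each gave log2 ratios of -0.45 and -0.83.

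**Figure D5:**
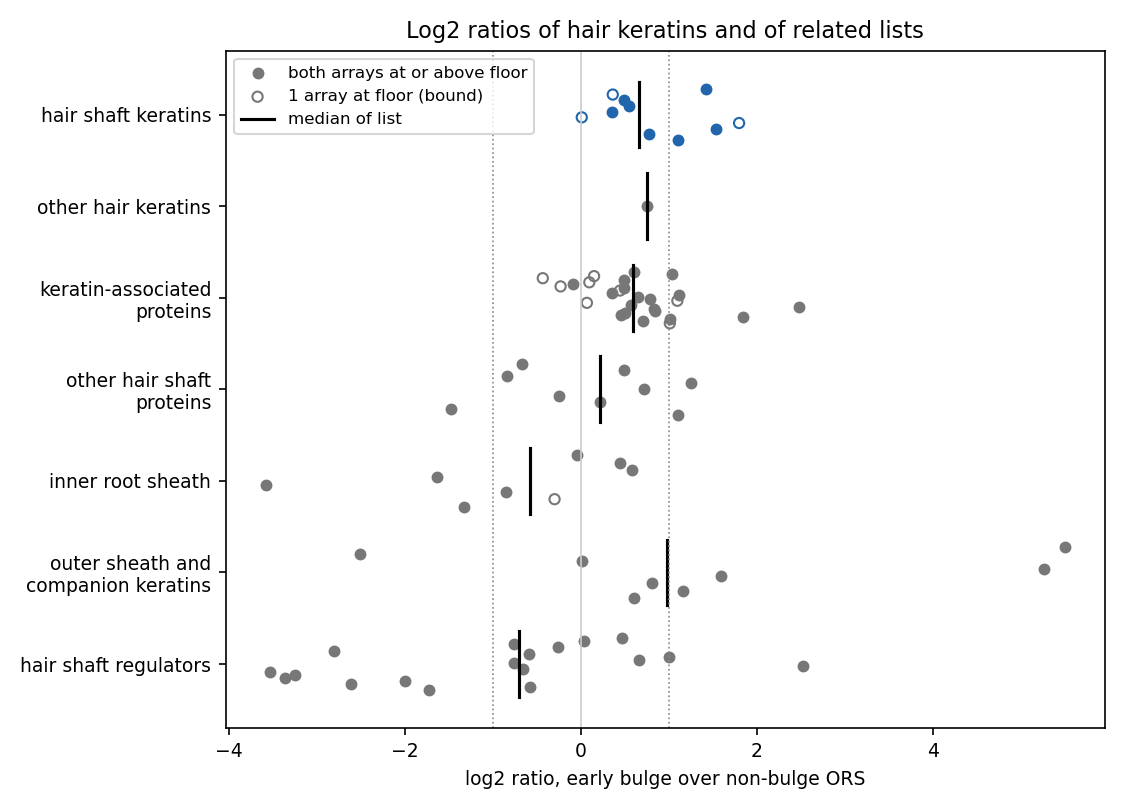
Log2 ratio of early bulge over non-bulge ORS (horizontal) for each measured gene of 7 lists (rows); filled points have both arrays at or above the floor, open points are bounds, black bars are list medians and dotted lines mark 2-fold. The hair shaft keratins (top row, blue) lie between 0.01 and 1.80 with bounds drawn at their floored values, the inner root sheath list reaches -3.58 and the regulators -3.53.

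Bulge and gate genes matched the labels only in part. Of 9 measured, 3 were at least 2-fold higher in early bulge, 1 in non-bulge ORS and 5 less than 2-fold apart. For this list and those below, the shares over all measured genes were 7.3% in early bulge and 4.78% in non-bulge ORS. The gate gene Sox9 had 4061 in early bulge and 676 in non-bulge ORS, with a weaker probe set at a log2 ratio of 0.30. Nfatc1, a factor of bulge stem cells, was 32.2-fold higher in early bulge. Krt14, whose reporter was bright in both populations, had a log2 ratio of 1.15, and its other probe sets gave 1.74 and 2.43. Cd34, a marker of the adult bulge, went the other way, with 61.8 in early bulge and 603 in non-bulge ORS. Markers of other cells moved between the arrays too. Of 10 dermal fibroblast markers, 9 were at least 2-fold higher in non-bulge ORS, and their signals summed to 6891 in early bulge and 60857 in non-bulge ORS. Suprabasal epidermal genes summed to 23334 in early bulge and 7002 in non-bulge ORS, and 5 of 8 measured, Krtdap, Sbsn, Calml3, Krt10 and Krt1, were at least 2-fold higher in early bulge; Krt1 was named after its value was seen. Melanocyte markers summed to 3267 in early bulge and 3611 in non-bulge ORS, with 1 of 10 at least 2-fold apart each way (Slc45a2 higher in early bulge, Kit higher in non-bulge ORS). The other probe set gave a log2 ratio of 1.04 for Slc45a2 and of -0.91, under 2-fold, for Kit. Dermal papilla markers summed to 1768 in early bulge and 2331 in non-bulge ORS, with 2 of 9 measured, Prom1 and Corin, at least 2-fold higher in non-bulge ORS. The lowest signal of any probe set was 0.13 in early bulge and 0.07 in non-bulge ORS, so a signal above 0 does not show that a marker was detected. Some markers in these lists lay below the floor on both arrays. The part of these other cell types in the hair shaft keratin ratios was not tested.

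Among 34 keratin genes at or above the floor on both arrays, ranked by log2 ratio from early bulge down, the 7 hair shaft keratins held places between 7 (Krt33a) and 20 (Krt35). Krt79 and Krt6a were first, with 5.50 and 5.26, and Krt28 was last. Of the 30 other keratins with at least 1 array at the floor or above it, 9 were at least 2-fold higher in early bulge, 6 in non-bulge ORS and 15 less than 2-fold apart, with a median of 0.28. Over all measured genes the shares past 2-fold were 7.3% in early bulge and 4.78% in non-bulge ORS.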

How the data were processed

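RNA of 2 samples was measured, 1 array each. The deposited unit is intensity on a linear scale, 1 value per probe set. Per the submitters' processing notes, the authors used MAS5 and Affymetrix Expression Console, with no version named. Detection calls were not used here. No genome build is named for the file. Control probe sets were left out. Genes were named from the platform annotation, and all 10 Entrez IDs of the members were in the RefSeq table (GRCm38.p6). Where a gene had several probe sets, the one whose mean log2 signal was highest stood for it. Signals under the floor (40th percentile) were set to it, and each ratio has early bulge over non-bulge ORS. Genes were counted at 2-fold, with no test, since each group had 1 array. The number of arrays limits the precision.

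The members, lists and settings were chosen with earlier results of these data known. Named genes were all members, any inner root sheath or other hair keratin gene, and up to 4 genes past 2-fold with the largest ratio in each other list, with Krt14 named through the gate and bulge list. Genes outside this rule are marked in the text. No gene was named for a like pattern, since 2 arrays give 1 ratio per gene. The planned comparison of protein sequences was not made. Alternatives were 3 scalings (loess span 0.4), no floor, a lower and a higher one (20th and 60th percentile), a pseudocount of 50 in its place, and other choices of probe set. The counting code was run on simulated arrays whose noise had the same size at every signal. That run does not test how dim signals behave. Python 3.11.15, numpy 2.4.6, pandas 2.3.3 and statsmodels 0.14.6 were used.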

Additional observations from a re-analysis of the deposited data

How the results depend on the processing

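The count of hair shaft keratins at least 2-fold higher in early bulge was 4 and became 2 of 8 measured with the floor at the 60th percentile, which sets more signals to the floor, and 2 of 10 with a pseudocount of 50, which shrinks ratios of dim genes. It was 3 after median centring, and 4 under quantile normalization, loess scaling, the floor at the 20th percentile and no floor. Shares over all measured genes were computed only for the values as deposited and the 3 scalings. Counts under other floors, no floor and the pseudocount have no such share beside them, so they cannot be read against a background. The count at least 2-fold higher in non-bulge ORS was 0 under all 10 alternatives, and the median log2 ratio (0.66) ran from 0.52 to 0.76. Krt33b ranged from 0.22 (60th percentile) to 3.36 (no floor), and Krt86 from 0.05 (60th percentile) to 1.42, with 0.97 under the pseudocount. Krt31 ranged from 0.89 to 1.11 and Krt33a from 1.27 to 1.53. No measured member changed sign with the floor applied. The choice of probe set changed nothing, because each gene had 1 probe set without a suffix. No paired analysis was possible because each group had 1 array. Signals close to the floor limit Krt33b, Krt34, Krt84 and Krt86.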

Other observations

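Among keratins outside the lists above, chosen after their values were seen, Krt77, a gene of suprabasal mouse epidermis, and Krt80 had log2 ratios of 2.70 and 2.10. The simple-epithelial keratin genes Krt8 and Krt18 had -1.44 and -0.56, and Krt19 had at most -1.25, with its early bulge signal below the floor.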
